A study of Mus musculus with 24 samples.

Results

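The Trim genes encode tripartite motif proteins, most of which are ubiquitin ligases. Members were all genes of the count table whose symbol was Trim, a number and at most 1 further letter, and for each gene the transcript with the largest mean count stood for it. The rule found 67 of the 25160 genes, and 38 of these 67 were expressed, which here means that they passed the filter on low counts that left 12213 genes for testing. RNA-seq was made from RAW 264.7 cells, which are mouse macrophages in culture, as 2 stable lines in which doxycycline switches on either Nur77, a nuclear receptor, or GFP. All 24 libraries came from cells given 50 ng/ml doxycycline for 18 h, the GFP controls included. The cells then received 500 ng/ml of lipopolysaccharide (LPS, a cell wall component of bacteria that Toll-like receptor 4 senses). Exposure lasted 0, 1 or 5 h, with 4 libraries in each of the 6 groups. Each construct was represented by 1 stable line, so an effect of the construct and a difference between lines cannot be told apart. The labels do not say whether the 4 libraries of a group came from separate cultures, and p-values measure the spread between these libraries, which may be technical.

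A typical tripartite motif protein has a RING domain that recruits a ubiquitin-conjugating enzyme, B-boxes and a coiled coil through which the proteins pair. Some members, among them Trim14, Trim29 and Trim44, lack the RING domain. The end of the protein differs between classes: a PRY-SPRY domain in most members, NHL repeats, a COS box that binds microtubules, a plant homeodomain with a bromodomain in the TIF1 cofactors of transcription, or a membrane anchor. In macrophages the family is known for tuning the sensing of microbes: several members attach ubiquitin to the RNA and DNA sensors, to their adaptors or to the kinases behind the Toll-like receptors, and many are themselves switched on by type I interferon.

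The libraries held 8137306 to 29279140 counts over genes, and the Trim genes took 0.152% to 0.207% of them. A principal component analysis of log2 CPM (counts-per-million, with library sizes scaled by TMM) set 1 library apart: replicate 2 of the Nur77 line at 1 h stood at 11.6 on the first component, where the other 3 of its group stood at -11.4 to -10.2. Without it, the log2 fold changes of the 16 members called at 1 h of LPS in the Nur77 line moved by a median of 0.052 and at most 0.18, for Trim62. Those of the 13 called between the lines at 1 h moved by a median of 0.061 and at most 0.32, for Trim29, and calls that changed are given where they occur. Nr4a1, the gene of Nur77, was at 2.53 to 3.39 CPM in the GFP line and at 2.74 to 3.71 CPM in the Nur77 line before LPS. At 1 h of LPS it was at 52.0 to 66.8 CPM in the GFP line and at 9.29 to 42.4 CPM in the Nur77 line. At 5 h the lines stood at 2.15 to 3.16 CPM and 4.52 to 5.20 CPM. The sequence of the construct is not given in the sources used here, so these levels are no check of the labels. All 9 macrophage markers in the table had a mean of at least 1 CPM in each group, and their sum was 10223 to 11628 CPM in the GFP libraries and 5457 to 7933 CPM in the Nur77 libraries. All 5 epithelial markers were at 0. The fibroblast markers summed to at most 0.723 CPM, the lymphocyte markers to at most 0.379 CPM and the neutrophil markers to 1.07 to 4.64 CPM.

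The stretches below are shown because some of the members that rose at 5 h of LPS carry the core of the interferon-stimulated response element in their start region. This element is the DNA site to which the transcription factors of interferon signalling bind. The core searched was GAAA, any 2 bases and GAAA again, or the reverse complement of this, in the 250 bases before each start of the RefSeq promoter table (GRCm38.p6). Matches may overlap each other. It occurred in 2.98% of the 32851 windows. Counted by gene, 3.46% of the 27025 genes with a window held it, and 3.39% of the 9719 tested genes with one. Of the 27 tested Trim genes with a window, 4 held it: Trim30a, Trim30d, Trim12c and Trim26. Each line runs 5′ to 3′ on the gene's strand and starts 50 bases before the core, which is in capitals.

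Trim30a, chr7:104465194-104465279, minus strand: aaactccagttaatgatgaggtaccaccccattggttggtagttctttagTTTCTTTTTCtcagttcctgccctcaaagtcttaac

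Trim30d, chr7:104507850-104507940, minus strand: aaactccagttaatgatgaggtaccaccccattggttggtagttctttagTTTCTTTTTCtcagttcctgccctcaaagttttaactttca

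Trim12c, chr7:104353350-104353428, minus strand: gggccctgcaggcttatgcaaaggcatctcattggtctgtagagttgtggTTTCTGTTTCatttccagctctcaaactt

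Trim26, chr17:36836936-36837045, plus strand: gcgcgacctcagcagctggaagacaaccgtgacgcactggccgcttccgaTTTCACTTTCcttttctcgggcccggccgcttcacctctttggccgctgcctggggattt

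The Trim30a and Trim30d stretches had 85 of 86 aligned bases the same. In Trim30a, Trim30d and Trim12c the core ended 27, 32 and 20 bases before the start, and in Trim26 it ended 151 bases before it. Trim30a had 2 windows, of which 1 held the core. Trim26 held a further, overlapping match that began 6 bases downstream of the first. Trim5, which was not tested, also held the core, in a stretch that shared 75 of 79 bases with that of Trim12c. Trim21, Trim25, Trim34a, Trim34b and Trim56 had windows in which these letters do not occur, and the other 18 tested members with a window had none either. Trim14 had no window. A match is a description of the sequence and not a bound site.

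Of the 29 members that were not tested, 9 had no count in any library: Trim6, Trim9, Trim31, Trim40, Trim42, Trim52, Trim58, Trim60 and Trim61. A count of 0 of 407168730 allows a level of up to 0.00737 CPM, at 3 counts and for counting error only. Another 14 had 1 to 20 counts over all libraries: Trim10, Trim15, Trim30b, Trim38, Trim43a, Trim43b, Trim50, Trim54, Trim55, Trim67, Trim71, Trim72, Trim75 and Trim80. The remaining 6 had more, with 101 counts for Trim5, 56 for Trim12a, 43 for Trim17, 43 for Trim63, 111 for Trim66 and 46 for Trim69. By class, the tested members were 5 of 9 of the Trim5-like PRY-SPRY genes, 16 of the other 29 PRY-SPRY genes, 3 of 4 TIF1 cofactors, 3 of 4 NHL genes and 2 of 8 COS-box genes. The remaining 9 were the membrane-anchored Trim13 and Trim59, the MATH-domain Trim37, the ARF-domain Trim23, the filamin-domain Trim45, and Trim8, Trim29, Trim44 and Trim56, which have no domain of these kinds.

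Positions of the genes described in most detail are those of the RefSeq annotation of GRCm38. Trim13 is at chr14:61598226-61610287, Trim30a at chr7:104409025-104465193, Trim21 at chr7:102557920-102565482, Trim28 at chr7:13024152-13031032 and Trim25 at chr11:88999403-89020294. Trim65 is at chr11:116124708-116131413, Trim2 at chr3:84160439-84308352, Trim44 at chr2:102300119-102400900, Trim24 at chr6:37870811-37968445 and Trim29 at chr9:43310715-43336125. These are whole gene spans, exons and introns together.

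Levels can be compared between genes only per length, and 35 of the 38 tested members had a transcript length. Over all libraries the highest level per kilobase belonged to Trim28, the corepressor that zinc-finger proteins use to silence DNA, at 61.8 CPM per kilobase. It was followed by Trim25 at 54.5, Trim35 at 51.0, Trim14 at 43.2 and Trim44 at 37.1 CPM per kilobase. The order changed with LPS in both lines. In the GFP line Trim28 led at 0 h with 70.2 CPM per kilobase against 47.5 for Trim25, and at 5 h Trim25 led with 82.0 against 43.0 for Trim28. In the Nur77 line the same pair stood at 80.6 and 41.7 CPM per kilobase at 0 h and at 48.4 and 87.6 at 5 h. The lowest of the 35 were Trim29 at 0.213, Trim43c at 0.220 and Trim30d at 0.406 CPM per kilobase, and their counts were few. Trim28 and Trim25 did not overlap between libraries of 0 h and 5 h in either line.

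**Figure D1:**
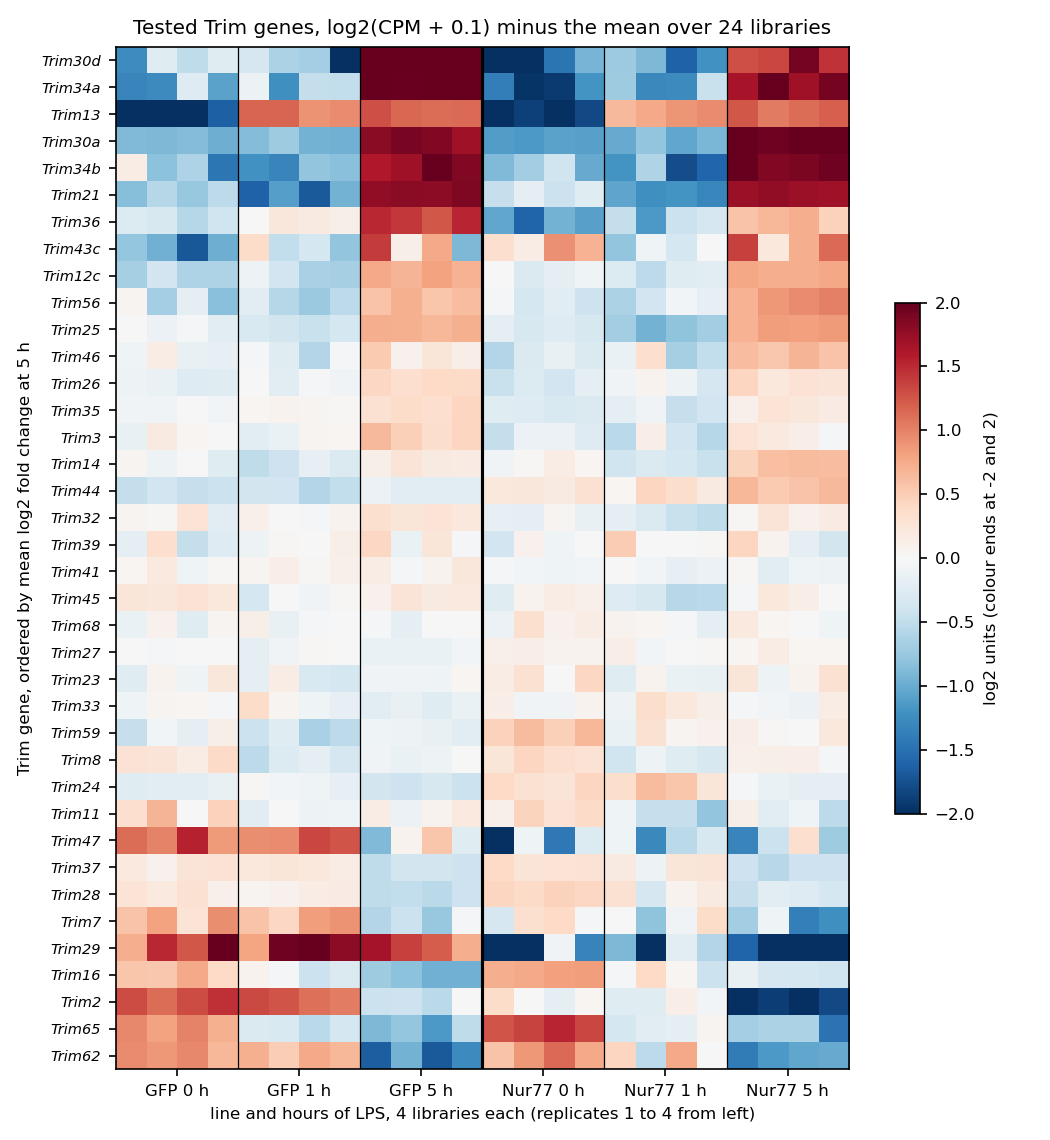
Log2 CPM (with 0.1 CPM added) of the 38 tested Trim genes in rows and the 24 libraries in columns, grouped by line and hours of LPS, each row minus its own mean, with colours that end at 2 in either direction. The columns of 5 h in both lines stand apart from those of 0 h for the interferon-inducible genes and Trim13, and Trim13 is also high at 1 h.

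Called here means an adjusted p under 0.05 in edgeR's quasi-likelihood test, adjusted over all 12213 genes. At 5 h of LPS, 27 of the 38 tested Trim genes were called in the GFP line, 17 higher and 10 lower, where 62.6% of all tested genes were called, 30.6% higher and 31.9% lower. Of the same 38, in the Nur77 line 28 were called, 17 higher and 11 lower, where the share over all genes was 66.6%, with 32.5% higher and 34.1% lower. At 1 h, 11 were called in the GFP line, 2 higher and 9 lower, against 17.4% of all genes, with 9.74% higher and 7.63% lower. For the Nur77 line at 1 h, 16 were called, 3 higher and 13 lower, against 44.3% of all genes, with 22.5% higher and 21.8% lower. The libraries of LPS and 0 h did not overlap for 27 members at 5 h and 10 at 1 h in the GFP line, where 60.3% and 21.8% of all genes did not. The Nur77 line had 25 and 15 such members, against 64.9% and 32.8% of all genes. The shares of members, 71.1% and 73.7% at 5 h and 28.9% and 42.1% at 1 h, are given beside these backgrounds, and no test compares them. In bulk libraries, fewer cells that express a gene and less of its RNA per cell cannot be told apart. The median log2 fold change of the 38 at 5 h was 0.14 in the GFP line and 0.18 in the Nur77 line, where the medians over all genes were -0.020 and -0.028.

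The tested members known as interferon-inducible rose together at 5 h. All 10 that were tested, namely Trim12c, Trim14, Trim21, Trim25, Trim26, Trim30a, Trim30d, Trim34a, Trim34b and Trim56, were called higher in both lines, where 30.6% of all genes were higher in the GFP line and 32.5% in the Nur77 line. These 10 had a median log2 fold change of 1.90 in the GFP line and 1.59 in the Nur77 line. Trim30d was at 0 to 0.274 CPM in all libraries of 0 h and 1 h. It passed the filter on low counts only through 5 h, so being tested fixed its rise in advance. Trim5, Trim6, Trim12a and Trim30b, also known as interferon-inducible, were not tested. Of the other 28 tested members, 7 were higher and 10 lower in the GFP line, and 7 were higher and 11 lower in the Nur77 line, with medians of -0.083 and -0.054, where 31.9% and 34.1% of all genes were lower. At 1 h none of the 10 was higher in the GFP line and 3 were lower, against 9.74% and 7.63% of all genes. The Nur77 line at that time had 1 of them higher, Trim26, and 3 lower, against 22.5% and 21.8%. The list was drawn up with earlier results of these data known, and its direction is a description.

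Trim30a, a mouse ligase known to restrain Toll-like receptor signalling by removing Tab2, had the smallest adjusted p of all members at 5 h in both lines. Its GFP libraries were at 13.3, 13.2, 13.5 and 12.5 CPM at 0 h, 13.4, 15.1, 12.7 and 12.7 at 1 h and 86.9, 92, 89.7 and 80.2 at 5 h. The Nur77 libraries were at 11.3, 11.1, 11.7 and 11.5 CPM at 0 h, 12.2, 14.2, 12 and 13 at 1 h and 98, 95.1, 103 and 103 at 5 h. The 5 h libraries lay far above all others in each line, and 1 h stayed near 0 h. At 5 h the gene rose 6.65-fold in the GFP line, or 2.73 (SE 0.067, adjusted p = 9.11e-22) in log2 units, and 8.75-fold in the Nur77 line, or 3.13 (SE 0.07, adjusted p = 1.22e-22). At 1 h the log2 fold changes were 0.045 (SE 0.073, adjusted p = 0.771) and 0.17 (SE 0.073, adjusted p = 0.0763), neither of them called.

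Trim30a lies in a block of relatives on chromosome 7 of GRCm38, where Trim6, Trim34a, Trim5, Trim12a, Trim34b, Trim12c, Trim30b, Trim30a and Trim30d lie between 104218795 and 104507853. The 5 tested genes of this block, which are all among the 10 interferon-inducible ones above, were higher at 5 h in both lines. Of all genes, 30.6% were higher in the GFP line and 32.5% in the Nur77 line. Trim6, Trim5, Trim12a and Trim30b were not tested, and Trim30d passed the filter only through its 5 h libraries. Trim30d, the nearest relative of Trim30a here, was at 0.0844, 0.274, 0.21 and 0.271 CPM at 0 h, 0.249, 0.182, 0.174 and 0 CPM at 1 h and 3.35, 3.25, 2.37 and 2.89 CPM at 5 h in the GFP line. The Nur77 libraries were at 0, 0, 0.0595 and 0.13 CPM, then 0.167, 0.135, 0.0436 and 0.0897 CPM, then 0.979, 1.01, 1.56 and 1.09 CPM. It was near 0 before 5 h, and its log2 fold change at 5 h was 3.71 (SE 0.33, adjusted p = 4.2e-10) and 4.31 (SE 0.54, adjusted p = 1.34e-07). It rested on 3 counts over the 4 Nur77 libraries at 0 h against 73 at 5 h, a ratio of 22.2 with an exact 95% counting interval of 7.30 to 110. Trim34a, a close relative of Trim34b, was at 0.591, 0.616, 1.35 and 0.723 CPM at 0 h in the GFP line, at 1.49, 0.637, 1.13 and 1.12 CPM at 1 h and at 9.33, 6.68, 9.6 and 6.75 CPM at 5 h. The Nur77 libraries were at 0.564, 0.343, 0.357 and 0.648, then 0.958, 0.606, 0.611 and 1.17, then 5.27, 7.92, 5.49 and 6.38 CPM. In both lines every 5 h library lay above every earlier one, and the log2 fold changes at 5 h were 3.21 (SE 0.24, adjusted p = 1.39e-11) and 3.69 (SE 0.29, adjusted p = 2.69e-11). Trim34b rose by 2.64 and 2.78 on the log2 scale. The transcripts of Trim34a and Trim34b share 41.5% and 59.0% of their 50-base words, so the split of reads between this pair is uncertain. Of the 50-base words of Trim12c, 28.7% occur in other members, mostly Trim5, and the shares were 14.8% for Trim30d and 6.53% for Trim30a.

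Trim12c, one of the mouse relatives of the antiretroviral factor TRIM5, was expressed before LPS. In the GFP line it stood at 11.8, 14.3, 12.2 and 12.2 CPM at 0 h, at 17.5, 14.3, 11.9 and 11.8 CPM at 1 h and at 31.7, 30.0, 32.8 and 30.4 CPM at 5 h. The Nur77 line had 18.7, 15.3, 16.6 and 17.6 CPM, then 15.4, 13, 15.9 and 16 CPM, then 32.2, 31.2, 31.2 and 32 CPM. The lines overlapped at 5 h, and at 0 h all Nur77 libraries were above all GFP libraries. The rise at 5 h was 1.31 (SE 0.10, adjusted p = 8.72e-12) in log2 units in the GFP line and 0.89 (SE 0.10, adjusted p = 8.89e-09) in the Nur77 line.

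Outside that block, Trim21, the cytosolic antibody receptor that sends antibody-coated viruses to the proteasome, dipped at 1 h and rose at 5 h. It was at 4.73, 5.75, 5.05 and 5.96 CPM at 0 h, 2.74, 3.96, 2.61 and 4.43 CPM at 1 h and 29.5, 30.4, 30.0 and 31.8 CPM at 5 h in the GFP line. The Nur77 line gave 6.2, 7.62, 6.36 and 7.26 CPM, then 4.08, 3.63, 3.71 and 3.41 CPM, then 28.8, 29.5, 28.4 and 28.1 CPM. No library of 1 h overlapped with one of 0 h or of 5 h in its line. The log2 fold change at 1 h was -0.59 (SE 0.13, adjusted p = 0.00135) in the GFP line and -0.87 (SE 0.12, adjusted p = 2.59e-06) in the Nur77 line. At 5 h it was 2.49 (SE 0.11, adjusted p = 9.43e-17), or 5.63-fold, and 2.06 (SE 0.10, adjusted p = 4.8e-15), or 4.18-fold.

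Trim25, the ligase known for activating the RNA sensor RIG-I, also dipped at 1 h and rose at 5 h. In the GFP line it was at 280.4, 260.0, 277 and 244 CPM at 0 h, 228, 218, 207 and 220.2 CPM at 1 h and 467, 461, 444 and 461 CPM at 5 h. Nur77 libraries of it were at 247, 226, 234 and 226 CPM, then 173, 146, 160.3 and 173 CPM, then 453, 504, 495 and 506 CPM. Again the 3 times did not overlap in either line. It fell at 1 h by 0.28 (SE 0.06, adjusted p = 0.00104) in log2 units in the GFP line and by 0.51 (SE 0.06, adjusted p = 1.69e-07) in the Nur77 line, and at 5 h it stood 0.79 (SE 0.06, adjusted p = 1.5e-11) and 1.07 (SE 0.06, adjusted p = 3.92e-14) above 0 h.

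Trim56, a ligase linked to the STING and TLR3 pathways, changed at 5 h. Its GFP libraries were at 23.8, 14.2, 20.2 and 12.7 CPM at 0 h, 19.8, 15.3, 13.7 and 15.8 CPM at 1 h and 34, 37.3, 33.4 and 35 CPM at 5 h. The Nur77 libraries gave 22.2, 17.9, 19.8 and 17.2, then 14.7, 17.4, 21.9 and 20.4, then 37.1, 41.6, 44 and 46.1 CPM. The earlier times overlapped with each other and lay below 5 h. The log2 fold change was 0.99 (SE 0.15, adjusted p = 3.23e-06) and 1.13 (SE 0.15, adjusted p = 4.65e-07) at 5 h, and -0.14 (SE 0.16, adjusted p = 0.655) and -0.054 (SE 0.15, adjusted p = 0.801) at 1 h. Trim14, a RING-less adaptor of Mavs, was at 62.1, 55.7, 59.7 and 50.7 CPM at 0 h, 42.3, 45.1, 53.8 and 49.3 CPM at 1 h and 64.7, 71.6, 68.3 and 67.1 CPM at 5 h in the GFP line. Trim14 in the Nur77 line was at 57.4, 60.7, 66.7 and 61.3 CPM, then 45.7, 49.2, 47 and 43.8 CPM, then 82.1, 90.8, 93.1 and 91.8 CPM. It rose at 5 h by 0.25 and 0.54 on the log2 scale after it fell by 0.26 and fell by 0.41 at 1 h. Trim26, a regulator of the kinase adaptor Nemo and of Irf3, rose at 5 h by 0.57 and 0.62.

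**Figure D2:**
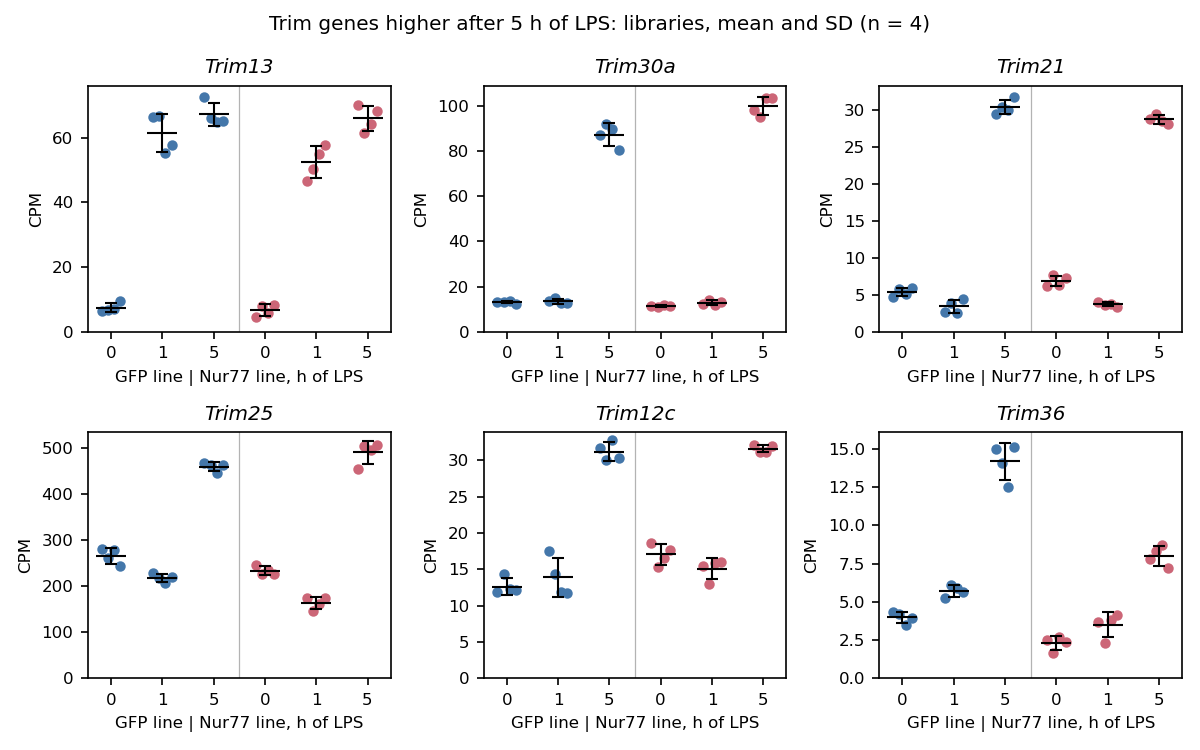
CPM of 6 Trim genes that were higher at 5 h of LPS (y axis, from 0) by line and hours of LPS (x axis); points are libraries, and the lines give the mean and SD of 4. Trim13 is at its high level by 1 h, while Trim30a, Trim21, Trim25 and Trim12c stand highest at 5 h, and the Nur77 libraries of Trim36 lie below those of the GFP line.

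Trim13 was near its 5 h level after 1 h. It encodes a ligase anchored in the endoplasmic reticulum membrane, known for a role in the degradation of proteins from that compartment. The GFP libraries went from 6.5, 6.77, 6.99 and 9.49 CPM at 0 h to 66.4, 66.5, 55.3 and 57.6 CPM at 1 h and 72.5, 66.2, 64.9 and 65 CPM at 5 h. Those of the Nur77 line went from 4.67, 8.03, 5.77 and 8.43 CPM to 46.5, 50.3, 55 and 57.6 CPM and 70.1, 61.4, 64.3 and 68.1 CPM. Every stimulated library lay far above every unstimulated one. The change at 1 h was 8.14-fold in the GFP line, or 3.03 (SE 0.13, adjusted p = 2.74e-16) in log2 units, and 7.72-fold in the Nur77 line, or 2.95 (SE 0.13, adjusted p = 8.32e-16). At 5 h it was 3.15 (SE 0.13, adjusted p = 3.34e-17) and 3.29 (SE 0.13, adjusted p = 3.25e-17) on the log2 scale. Trim13 overlaps Dleu2 and Kcnrg in the annotation, and whether counting used strand is not given in the sources used here. These neighbours reached group means of at most 3.54 and 0.739 CPM, where Trim13 stood at 52.4 to 67.1 CPM after LPS.

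Trim36, a COS-box ligase that associates with microtubules, rose in steps at both times. The GFP line gave 4.3, 4.17, 3.49 and 3.93 CPM at 0 h, 5.22, 6.1, 5.92 and 5.66 CPM at 1 h and 15, 14.1, 12.5 and 15.1 CPM at 5 h. The Nur77 line gave 2.5, 1.65, 2.68 and 2.4 CPM, then 3.71, 2.29, 3.84 and 4.12 CPM, then 7.79, 8.35, 8.69 and 7.2 CPM. At each time the Nur77 libraries lay below the GFP libraries, and within the Nur77 line the 0 h and 1 h libraries overlapped. The log2 fold change was 0.55 (SE 0.14, adjusted p = 0.00724) at 1 h and 1.84 (SE 0.13, adjusted p = 5.11e-12) at 5 h in the GFP line. It was 0.60 (SE 0.16, adjusted p = 0.00477) at 1 h and 1.79 (SE 0.15, adjusted p = 1.32e-10) at 5 h in the Nur77 line. With only the libraries of the compared groups in the fit, the 1 h call in the Nur77 line was lost, at an adjusted p of 0.0675.

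Trim35, Trim3 and Trim32 were higher at 5 h in both lines by less than Trim36. The abundant Trim35 went from 178 ± 4.14 to 237 ± 8.58 CPM (SD, n = 4) in the GFP line and from 153 ± 3.37 to 211 ± 10.8 CPM in the Nur77 line. The NHL-repeat genes Trim3 and Trim32 rose by 0.46 and 0.22 in log2 units in the GFP line, and by 0.39 and 0.23 in the Nur77 line. The call of Trim32 in the GFP line was lost without replicate 2 or 4 of GFP 0 h, or replicate 1 of GFP 5 h, at adjusted p of 0.0602 to 0.158. Its call in the Nur77 line was lost without replicate 1 or 2 or 4 of Nur77 0 h, or replicate 2 of Nur77 5 h, at adjusted p of 0.0563 to 0.089. Trim46, a COS-box protein of the neuronal axon, was higher at 5 h in the Nur77 line at 0.92 (SE 0.16, adjusted p = 2.02e-05) and not called in the GFP line at 0.32 (SE 0.16, adjusted p = 0.0769). The reverse held for Trim43c, with 2.36 (SE 0.54, adjusted p = 0.000518) in the GFP line and 0.45 (SE 0.40, adjusted p = 0.319) in the Nur77 line, on 8 and 46 counts over the GFP libraries at 0 h and 5 h. Trim43c shares 42.3% of its 50-base words with other members. It also overlaps 9330159M07Rik, which stood at group means of 0.599 to 2.89 CPM, above Trim43c in every group. Trim46 overlaps Krtcap2, which stood at group means of 91.1 to 111 CPM, far above Trim46. Without replicate 2 of the Nur77 line at 1 h, Trim46 was also called at 5 h in the GFP line, at an adjusted p of 0.0256. With all libraries in the fit, the difference in response between the lines was not called for Trim46 or Trim43c, with adjusted p of 0.11 and 0.0946.

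Early falls at 1 h were shared by 9 members in both lines: Trim8, Trim11, Trim14, Trim16, Trim21, Trim25, Trim45, Trim59 and Trim65. They make up every member lower at 1 h in the GFP line and 69.2% of the 13 in the Nur77 line, which also included Trim23, Trim28, Trim32 and Trim62. How far the falls of all genes were shared between the lines was not worked out. Without replicate 2 of the Nur77 line, the 1 h calls of Trim62 and of the riser Trim26 were lost, with adjusted p of 0.0716 and 0.0947, and 14 of the 16 calls were kept. Over all alternatives, the call of Trim62 was lost without replicate 3 of Nur77 0 h, or replicate 2 or 4 of Nur77 1 h and with only the groups compared, at adjusted p of 0.0502 to 0.107. That of Trim26 was lost without replicate 1 or 3 of Nur77 0 h, or replicate 2 of Nur77 1 h and with only the groups compared, at adjusted p of 0.0584 to 0.109, and that of Trim32 without replicate 3 of Nur77 0 h, or replicate 3 or 4 of Nur77 1 h and with only the groups compared, at adjusted p of 0.0869 to 0.13. In the GFP line the count at 1 h was 7 in place of 11 without replicate 1 of 1 h. The call of Trim11 was lost without replicate 2 of GFP 0 h, or replicate 1 of GFP 1 h, at adjusted p of 0.0553 to 0.092, that of Trim14 without replicate 1 or 3 of GFP 0 h, or replicate 1 or 2 of GFP 1 h and with only the groups compared, at adjusted p of 0.0551 to 0.07, and that of Trim45 without replicate 3 of GFP 0 h, or replicate 1 or 3 of GFP 1 h, at adjusted p of 0.0512 to 0.103. The difference of the 1 h response between the lines was called for none of the 38 members, where 1.18% of all genes were called, 0.63% with a larger and 0.549% with a smaller value in the Nur77 line. At an unadjusted p under 0.05 there were 3, and DESeq2 called none. Without replicate 1 of the Nur77 line at 1 h, Trim25 was called.

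Trim65, the ligase that activates the RNA sensor MDA5, had the lowest log2 fold change at 1 h in both lines. Its GFP libraries went from 7.85, 6.98, 8 and 6.55 CPM to 3.23, 3.19, 2.7 and 3.08 CPM at 1 h and 2.07, 2.27, 1.73 and 2.75 CPM at 5 h. Its Nur77 libraries went from 9.59, 10.3, 11.6 and 10.2 CPM to 3.08, 3.37, 3.45 and 4.12 CPM and 2.45, 2.52, 2.52 and 1.37 CPM. The unstimulated libraries stood above all stimulated ones in each line. It fell by 1.26 (SE 0.15, adjusted p = 2.6e-07) on the log2 scale at 1 h and by 1.75 (SE 0.15, adjusted p = 1.29e-10) at 5 h in the GFP line. Trim65 in the Nur77 line fell by 1.59 (SE 0.14, adjusted p = 9.65e-10) at 1 h and by 2.20 (SE 0.15, adjusted p = 1.66e-12) at 5 h. It shares 5.94% of its 50-base words with Trim47.

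Trim8, a ligase that acts on the kinase Tak1, fell at 1 h and stood between the earlier levels at 5 h. GFP libraries were at 96.4, 94.6, 87.5 and 103 CPM at 0 h, 54.6, 65, 69.9 and 62.5 CPM at 1 h and 74.9, 71.9, 73.4 and 78.4 CPM at 5 h. Nur77 libraries were at 93.2, 106, 99.1 and 96.2 CPM, then 60.0, 73.2, 66.9 and 62.9 CPM, then 84.9, 85.6, 86.1 and 76.3 CPM. The 0 h and 1 h libraries did not overlap in either line. The log2 fold change at 1 h was -0.59 (SE 0.072, adjusted p = 4.87e-07) and -0.58 (SE 0.072, adjusted p = 3.64e-07), and at 5 h it was -0.35 (SE 0.071, adjusted p = 0.00012) and -0.24 (SE 0.071, adjusted p = 0.00433).

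Trim16, known for the clearance of damaged endomembranes, was lower at both times. It was at 5.91, 5.88, 6.86 and 5.29 CPM at 0 h, 4.23, 3.96, 2.96 and 3.25 CPM at 1 h and 2.4, 2.23, 2 and 2 CPM at 5 h in the GFP line. The Nur77 line gave 6.69, 6.87, 7.13 and 7.26 CPM, 3.91, 5.32, 4.1 and 2.96 CPM and 3.61, 3.17, 3.12 and 3.01 CPM. No library after LPS reached the level of an unstimulated one of its line. On the log2 scale it fell by 0.74 (SE 0.14, adjusted p = 0.000395) and fell by 0.77 (SE 0.14, adjusted p = 8.11e-05) at 1 h in the GFP and Nur77 lines, and by 1.47 (SE 0.15, adjusted p = 3.3e-09) and fell by 1.10 (SE 0.14, adjusted p = 2.73e-07) at 5 h.

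A further set fell by 5 h. Trim2, an NHL-repeat ligase best known in neurons, went from 23.6, 20.9, 23.6 and 26.3 CPM to 23.9, 23, 20.5 and 19.5 CPM at 1 h and 7.04, 7.12, 6.51 and 9.43 CPM at 5 h in the GFP line. In the Nur77 line it went from 12.2, 9.61, 8.26 and 9.79 CPM to 8.08, 8.01, 10.5 and 9.14 CPM and 2.3, 2.52, 1.48 and 2.64 CPM. The earlier times overlapped in both lines and 5 h lay below them. It fell by 1.67 (SE 0.13, adjusted p = 2.5e-11) on the log2 scale at 5 h in the GFP line and fell by 2.15 (SE 0.17, adjusted p = 1.94e-11) in the Nur77 line. Trim62, a ligase of the fungal-sensing adaptor Card9, fell by 2.31 (SE 0.22, adjusted p = 1.66e-09) and fell by 2.11 (SE 0.23, adjusted p = 1.23e-08), to group means of 1.05 and 1.24 CPM.

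Trim28 fell at 5 h from the highest level per kilobase among the members with a length. GFP libraries were at 236, 224, 242 and 209 CPM at 0 h, 204, 207, 216 and 219.5 CPM at 1 h and 138, 139.6, 135 and 147 CPM at 5 h. Nur77 libraries were at 263, 254, 268 and 261 CPM, 241, 155, 206 and 223 CPM and 142, 169.5, 164 and 154 CPM. The 1 h Nur77 libraries were the most scattered, and the lowest of them is the library that stood apart. It fell by 0.71 (SE 0.087, adjusted p = 1.04e-07) on the log2 scale at 5 h in the GFP line and fell by 0.73 (SE 0.087, adjusted p = 4.81e-08) in the Nur77 line. At 1 h the values were -0.11 (SE 0.086, adjusted p = 0.492) and -0.34 (SE 0.086, adjusted p = 0.00243), and without the library that stood apart the second was -0.23 (SE 0.062, adjusted p = 0.00478). This call was lost with only the compared groups in the fit, at an adjusted p of 0.054. Its relative Trim24 fell at 5 h by 0.18 (SE 0.075, adjusted p = 0.0393) and fell by 0.48 (SE 0.075, adjusted p = 3.59e-06), and the first call was lost without replicate 2 or 4 of GFP 0 h, or replicate 1 or 2 or 4 of GFP 5 h and with no filter on low counts, at adjusted p of 0.0608 to 0.0956.

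Trim37, a ligase of peroxisomes and centrosomes, was at 133 ± 8.08 CPM (SD, n = 4) at 0 h and 86.3 ± 3.81 at 5 h in the GFP line, and at 143 ± 6.5 and 84.1 ± 4.09 CPM in the Nur77 line. Trim7, which binds the glycogen primer glycogenin, went from 3.34 to 1.51 CPM and from 2.24 to 1.19 CPM. Both were called lower at 5 h in both lines. Trim47 was lower in the GFP line at -1.25 (SE 0.35, adjusted p = 0.00289) and was at 0.30 (SE 0.51, adjusted p = 0.615) in the Nur77 line. Trim11 and Trim59 were called lower at 5 h in the Nur77 line, at -0.46 (SE 0.14, adjusted p = 0.00634) and -0.47 (SE 0.10, adjusted p = 0.000258), and not in the GFP line, at -0.31 (SE 0.14, adjusted p = 0.0525) and -0.012 (SE 0.10, adjusted p = 0.929). In the GFP line Trim11 was called in 5 of 16 alternatives, DESeq2's Wald test among them, with adjusted p of 0.00731 to 0.225 over all of them. Without replicate 2 of the Nur77 line at 1 h, Trim11 and Trim46 were added in the GFP line, and 29 members were called there in place of 27. Trim47, Trim11 and Trim59 did not differ in response between the lines past the threshold, with adjusted p of 0.133, 0.715 and 0.0501. The difference of Trim59 was called in 7 of 24 alternatives, DESeq2's Wald test among them, with adjusted p of 0.0149 to 0.12 over all of them.

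**Figure D3:**
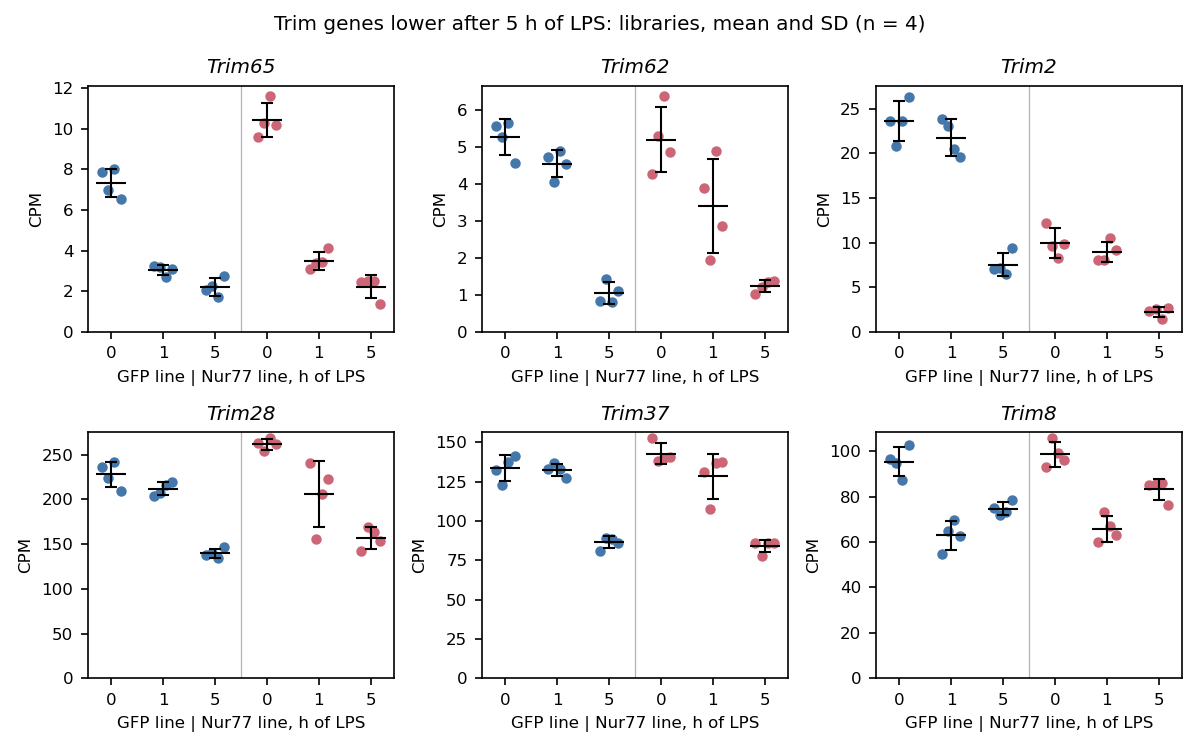
CPM of 6 Trim genes that were lower at 5 h of LPS (y axis, from 0) by line and hours of LPS (x axis); points are libraries, and the lines give the mean and SD of 4. Trim65 and Trim8 are already low at 1 h, and Trim2 starts from a lower level in the Nur77 line.

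Across the lines, which have their own 0 h libraries, 16 members were higher at 5 h in both. They are 94.1% of the 17 in the GFP line and 94.1% of the 17 in the Nur77 line. Of the members lower at 5 h, 9 were lower in both, 90.0% of the 10 in the GFP line and 81.8% of the 11 in the Nur77 line. No member was called in opposite directions. The same overlap was not worked out over all tested genes, so whether these shares are particular to the Trim genes is not known. The plot of both lines' log2 fold changes shows the interferon-inducible genes spread along the diagonal from Trim14, at 0.25 and 0.54, to Trim30d, at 3.71 and 4.31.

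**Figure D4:**
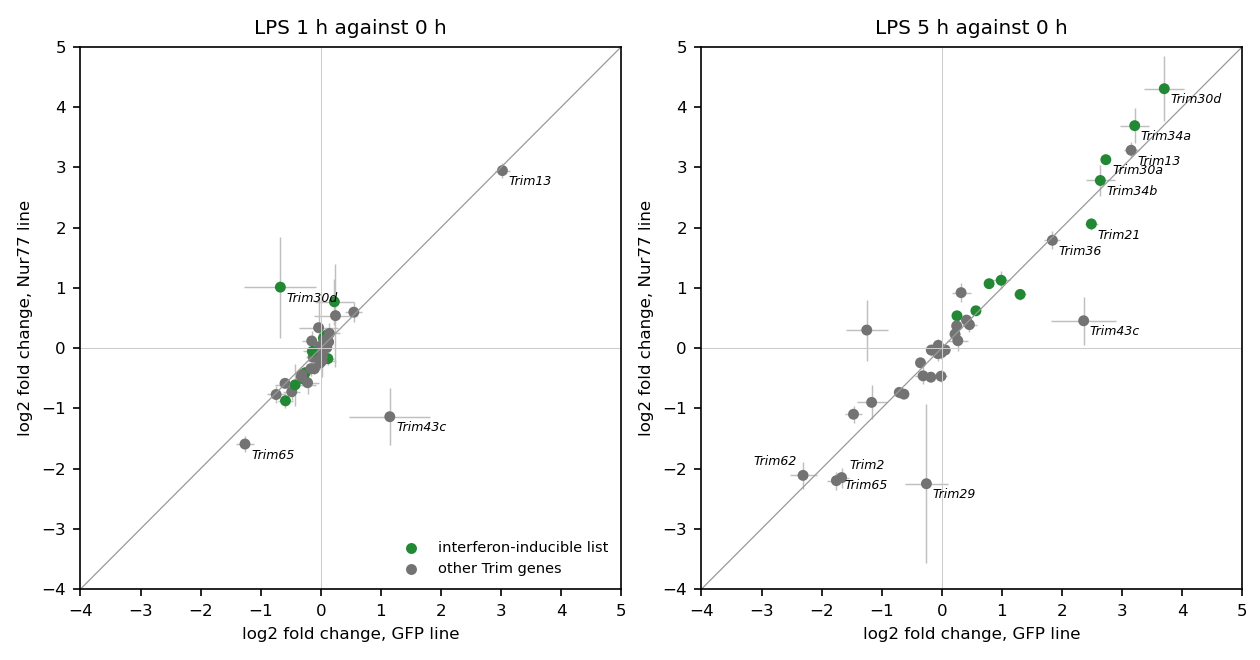
Log2 fold change of each tested Trim gene against 0 h in the GFP line (x axis) and in the Nur77 line (y axis), at 1 h on the left and 5 h on the right, with standard errors and the line of equal change. At 1 h Trim13 stands alone at the upper right and Trim65 at the lower left, and at 5 h most members lie near the diagonal.

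Between the lines, 15 members were called at 0 h, 7 higher and 8 lower in the Nur77 line, where 39.8% of all genes were called, 20.2% higher and 19.7% lower. At 1 h, 13 were called, 3 higher and 10 lower, against 51.2% of all genes, 26.5% higher and 24.8% lower. At 5 h, 13 were called, 6 higher and 7 lower, against 46.4% of all genes, 21.9% higher and 24.4% lower. The libraries of the lines did not overlap for 16, 12 and 15 members at 0, 1 and 5 h, against 41.2%, 35.1% and 51.4% of all genes. The members' shares of 39.5%, 34.2% and 34.2% were near or below these backgrounds. The summed macrophage markers given above were also lower in every Nur77 library than in every GFP library, and their part in these differences was not tested. Trim24 and Trim44 were higher in the Nur77 line at all 3 times, and Trim2, Trim29, Trim35 and Trim36 were lower at all 3. Called at no time were 15 members: Trim8, Trim11, Trim13, Trim23, Trim26, Trim28, Trim33, Trim34a, Trim34b, Trim37, Trim39, Trim46, Trim56, Trim62 and Trim68. Without replicate 2 of the Nur77 line at 1 h, the counts were 18, 14 and 17, with Trim28, Trim3 and Trim7 added at 0 h, Trim3 at 1 h, and Trim28, Trim46, Trim59 and Trim8 at 5 h.

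Trim44, a RING-less member that stabilises Mavs, had the smallest adjusted p at each time. GFP libraries were at 143, 154, 145 and 149 CPM at 0 h, 155, 153, 134 and 143 CPM at 1 h and 186, 172, 174 and 172 CPM at 5 h. Nur77 libraries were at 232, 236, 226 and 248 CPM, 205, 269.6, 256 and 227 CPM and 319, 287, 297 and 315 CPM. At no time did the lines overlap. The Nur77 line was higher by 0.67 (SE 0.069, adjusted p = 1.66e-08) on the log2 scale at 0 h, 0.71 (SE 0.069, adjusted p = 6e-09) at 1 h and 0.79 (SE 0.069, adjusted p = 6.14e-10) at 5 h. LPS added 0.25 and 0.37 by 5 h.

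Trim24, the TIF1 cofactor that binds nuclear receptors, was at 21.9, 22.4, 22.1 and 23.4 CPM at 0 h, 26.4, 25, 24.4 and 23.1 CPM at 1 h and 20, 19.5, 20.7 and 19.1 CPM at 5 h in the GFP line. The Nur77 line was at 34.3, 32.2, 31.1 and 34.8 CPM, 33.2, 40.0, 38.1 and 30.6 CPM and 25.4, 23.6, 22.6 and 22.9 CPM. The lines did not overlap at any time and were nearest at 5 h. The difference was 0.56 (SE 0.074, adjusted p = 1.24e-06) at 0 h, 0.53 (SE 0.075, adjusted p = 2.41e-06) at 1 h and 0.26 (SE 0.076, adjusted p = 0.00731) at 5 h. Its relatives Trim28 and Trim33 were not called at any time, with log2 differences at 0 h of 0.20 (SE 0.086, adjusted p = 0.0683) and 0.028 (SE 0.094, adjusted p = 0.844).

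Trim59, a membrane-anchored regulator of innate signalling, was higher in the Nur77 line at 0 h and 1 h. GFP libraries stood at 37.9, 50.5, 46.4 and 56.7 CPM at 0 h, 38.9, 44.5, 33.3 and 36.5 CPM at 1 h and 49.2, 48.9, 47.5 and 44.9 CPM at 5 h. Nur77 libraries stood at 72.4, 81.5, 72.7 and 83.1 CPM, 47.9, 64.9, 54.6 and 55.9 CPM and 57.5, 53.3, 52.6 and 60.9 CPM. All Nur77 libraries were above all GFP libraries at each time. The differences were 0.69 (SE 0.10, adjusted p = 5.01e-06), 0.54 (SE 0.10, adjusted p = 0.000135) and 0.23 (SE 0.10, adjusted p = 0.0616) on the log2 scale, the last of them not called. The 1 h fall of Trim59 in the GFP line was lost without replicate 2 or 3 or 4 of GFP 0 h, or replicate 1 or 3 or 4 of GFP 1 h and with only the groups compared, at adjusted p of 0.0513 to 0.142.

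On the lower side, the log2 differences of Trim2, whose values by library stand above, were -1.25 (SE 0.13, adjusted p = 1.67e-08) at 0 h, -1.28 (SE 0.13, adjusted p = 1.3e-08) at 1 h and -1.73 (SE 0.17, adjusted p = 4.07e-09) at 5 h. Those of Trim36 were -0.77 (SE 0.16, adjusted p = 0.000441), -0.72 (SE 0.15, adjusted p = 0.000219) and -0.82 (SE 0.12, adjusted p = 5.8e-06). Trim35 was lower by smaller amounts, -0.22 (SE 0.063, adjusted p = 0.00681), -0.31 (SE 0.063, adjusted p = 0.000218) and -0.17 (SE 0.063, adjusted p = 0.0308), and its call at 5 h was lost without replicate 2 or 4 of GFP 5 h, or replicate 1 or 4 of Nur77 5 h and with no filter on low counts, at adjusted p of 0.0525 to 0.108. Trim2 and Trim36 did not overlap between the lines at any time.

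Trim29, a RING-less protein known mostly from epithelia and airway macrophages, had few counts in the Nur77 line. The GFP libraries were at 0.591, 1.09, 0.884 and 1.72 CPM at 0 h, 0.622, 1.5, 1.57 and 1.34 CPM at 1 h and 1.23, 0.979, 0.864 and 0.594 CPM at 5 h. The Nur77 libraries were at 0, 0, 0.297 and 0.0648 CPM, 0.125, 0, 0.262 and 0.179 CPM and 0.0377, 0, 0 and 0 CPM. Over the 4 libraries these were 82, 80 and 71 counts in the GFP line and 6, 11 and 1 in the Nur77 line. The ratio at 5 h was 60.8, with an exact 95% counting interval of 10.6 to 2434. The fitted log2 differences were -3.37 (SE 0.59, adjusted p = 5.04e-05), -3.08 (SE 0.51, adjusted p = 2.22e-05) and -5.37 (SE 0.82, adjusted p = 6.24e-06). Trim47, a ligase of the deubiquitinase Cyld, was at 1.86, 1.71, 2.53 and 1.54 CPM in the GFP line and 0.0806, 0.755, 0.238 and 0.648 CPM in the Nur77 line at 0 h. At 1 h the lines stood at 1.62, 1.64, 2.18 and 2.07 CPM and 0.75, 0.269, 0.523 and 0.628 CPM, and at 5 h at 0.391, 0.846, 1.23 and 0.668 CPM and 0.264, 0.576, 1.04 and 0.456 CPM. The lines overlapped at 5 h and not before, and the differences were -2.12 (SE 0.41, adjusted p = 0.000152), -1.74 (SE 0.38, adjusted p = 0.000522) and -0.57 (SE 0.43, adjusted p = 0.296).

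Among the interferon-inducible members the lines differed in a mixed way, with 2 higher and 3 lower at 0 h in the Nur77 line, 0 and 1 at 1 h, and 2 and 1 at 5 h. Of all genes, 20.2% were higher and 19.7% lower at 0 h, 26.5% and 24.8% at 1 h, and 21.9% and 24.4% at 5 h. At 0 h Trim12c and Trim21 were higher, by 0.43 (SE 0.10, adjusted p = 0.00108) and 0.35 (SE 0.12, adjusted p = 0.0195), and Trim25, Trim30a and Trim30d were lower. The call of Trim21 was lost without replicate 1 or 3 of GFP 0 h, or replicate 2 or 4 of Nur77 0 h, at adjusted p of 0.0586 to 0.0847. At 1 h and 5 h Trim21 differed by 0.06 (SE 0.13, adjusted p = 0.83) and -0.083 (SE 0.092, adjusted p = 0.486). The log2 difference of Trim25 was -0.19 (SE 0.06, adjusted p = 0.0148) at 0 h, -0.42 (SE 0.06, adjusted p = 3.17e-06) at 1 h and 0.095 (SE 0.059, adjusted p = 0.2) at 5 h. The 0 h call of Trim25 was lost without replicate 1 of GFP 0 h, at an adjusted p of 0.0571. Trim14 was higher at 5 h by 0.39 (SE 0.071, adjusted p = 6.18e-05). Trim56 differed by 0.13 (SE 0.15, adjusted p = 0.539), 0.22 (SE 0.16, adjusted p = 0.261) and 0.27 (SE 0.14, adjusted p = 0.131), and Trim28 by -0.038 (SE 0.086, adjusted p = 0.735) at 1 h and 0.17 (SE 0.087, adjusted p = 0.111) at 5 h. Trim30d was lower at 0 h on 16 against 3 counts, a ratio of 4.36 with a counting interval of 1.25 to 23.4. This call was lost in 7 of 15 alternatives, without replicate 2 or 3 or 4 of GFP 0 h, or replicate 1 or 2 or 3 of Nur77 0 h and with DESeq2 Wald test, at adjusted p of 0.053 to 0.0961. Its log2 difference at 5 h was -1.37 (SE 0.26, adjusted p = 0.000103).

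The remaining differences between the lines were single or small. Higher at 1 time in the Nur77 line were Trim65 and Trim43c at 0 h, by 0.51 and 2.33 on the log2 scale, and Trim16 and Trim27 at 5 h, by 0.59 and 0.18. The difference of Trim43c rested on 8 counts over the GFP libraries and 35 over the Nur77 libraries, and the gene overlaps 9330159M07Rik. Lower at 1 h were Trim7, Trim32 and Trim45, at -0.79, -0.38 and -0.33, and the call of Trim45 was lost with only the groups compared, at an adjusted p of 0.0672. Lower at 5 h was Trim3, at -0.33, a call lost without replicate 1 or 2 of GFP 5 h, or replicate 3 or 4 of Nur77 5 h, at adjusted p of 0.0505 to 0.0988. Without replicate 2 of the Nur77 line at 1 h, Trim3 was also called at 1 h, at -0.44 with an adjusted p of 0.00156. Trim41 was lower at 1 h and 5 h, at -0.17 and -0.19. These calls were lost without replicate 2 or 4 of GFP 1 h, or replicate 3 or 4 of Nur77 1 h and with no filter on low counts or only the groups compared, at adjusted p of 0.0582 to 0.117, and without replicate 1 or 4 of GFP 5 h, or replicate 2 of Nur77 5 h, at adjusted p of 0.0563 to 0.0852.

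**Figure D5:**
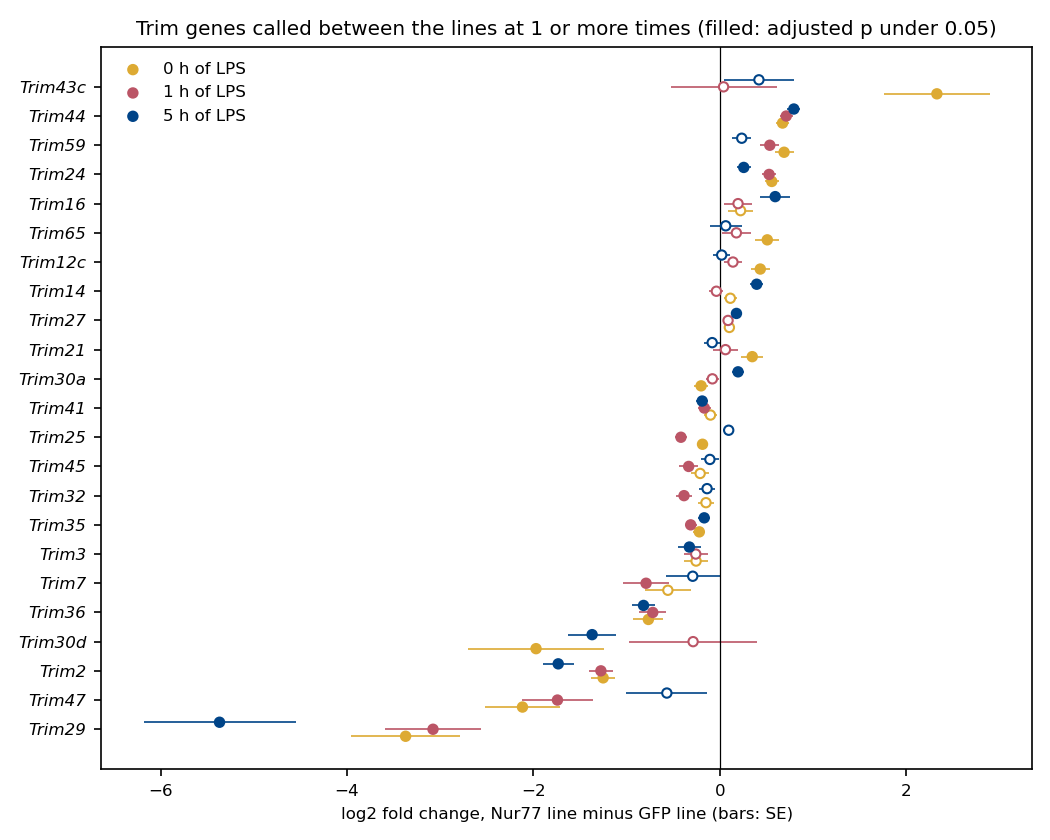
Log2 difference between the lines (x axis, Nur77 minus GFP) for the 23 Trim genes called at 1 or more times of LPS (y axis). Colours mark 0, 1 and 5 h of LPS, bars are standard errors, and filled points are called. Trim44 and Trim24 stay to the right of 0, while Trim2, Trim29, Trim35 and Trim36 stay to the left of it.

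The LPS response at 5 h differed between the lines for 2 of the 38 members, Trim30a and Trim25, both with a larger rise in the Nur77 line, where 7.94% of all genes were called, 2.81% with a larger and 5.13% with a smaller value in that line. At an unadjusted p under 0.05 there were 12. The difference was 0.40 (SE 0.095, adjusted p = 0.00822) on the log2 scale for Trim30a and 0.28 (SE 0.084, adjusted p = 0.0383) for Trim25. The Nur77 libraries of Trim30a were below the GFP libraries at 0 h, with -0.20 (SE 0.073, adjusted p = 0.0306), and above them at 5 h, with 0.19 (SE 0.06, adjusted p = 0.00935). At 1 h the difference was -0.08 (SE 0.073, adjusted p = 0.369). The 0 h difference was not called without replicate 1 or 2 or 3 of GFP 0 h, or replicate 2 of Nur77 0 h and with DESeq2 Wald test or no filter on low counts, at adjusted p of 0.0557 to 0.0747. The difference in response of Trim30a was called in all 24 alternatives, and that of Trim25 was lost in 14 of 24, without replicate 1 or 3 of GFP 0 h, or replicate 1 or 2 or 3 or 4 of GFP 5 h, or replicate 2 or 3 or 4 of Nur77 0 h, or replicate 2 or 3 or 4 of Nur77 5 h and with no filter on low counts or replicate block, at adjusted p of 0.0541 to 0.088. Trim21, Trim28 and Trim56 were not called, with -0.43 (SE 0.15, adjusted p = 0.0781), -0.028 (SE 0.12, adjusted p = 0.923) and 0.14 (SE 0.21, adjusted p = 0.764). At 1 h the values of these 5 genes were 0.12 for Trim30a, -0.23 for Trim25, -0.29 for Trim21, -0.24 for Trim28 and 0.086 for Trim56, with adjusted p of 0.625, 0.134, 0.368, 0.276 and 0.868. Without replicate 4 of the GFP line at 0 h the count was 4. It rose to 7 without replicate 2 of the Nur77 line at 1 h, which is in neither arm of this comparison but shares in the estimate of the spread. The members then added were Trim12c, Trim21, Trim24 and Trim59, each with a smaller value in the Nur77 line, and Trim46 with a larger one.

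Trim33, Trim39 and Trim68 were called in no comparison. Trim33, the TIF1 cofactor of Smad signalling, stayed between group means of 105 and 132 CPM. Its log2 fold change at 5 h had a 95% interval of -0.37 to 0.02 in the GFP line and -0.23 to 0.16 in the Nur77 line. For Trim39 the group means were 16.7 to 20.2 CPM, and for Trim68 they were 10.3 to 11.6 CPM. Trim27 was at 76.0 to 87.6 CPM and called in 1 comparison, that of the lines at 5 h. Trim23, a ligase fused to an ARF GTPase domain, was at 20.1 to 26.3 CPM and called lower at 1 h in the Nur77 line, at -0.34 (SE 0.12, adjusted p = 0.0205), a call lost without replicate 2 or 4 of Nur77 0 h, or replicate 1 of Nur77 1 h, at adjusted p of 0.064 to 0.101.

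The rest of the pathway was read from short lists of textbook genes, whose counts stand beside the share of all genes called: at 5 h 30.6% were higher and 31.9% lower in the GFP line, and 32.5% and 34.1% in the Nur77 line. All 15 tested genes of the type I interferon response were higher at 5 h in both lines, with median log2 fold changes of 5.03 and 4.87, above those of the interferon-inducible Trim genes. Between the lines at 5 h, 4 of the 15 were higher and 5 lower in the Nur77 line, against 21.9% and 24.4% of all genes. The 5 h response was larger in that line for 2 of them and smaller for 4, against 2.81% and 5.13% of all genes. Ifnb1 itself was not tested, at group means of at most 0.291 CPM. At 1 h, 4 of the 15 were higher and 2 lower in each line, against 9.74% and 7.63% of all genes in the GFP line and 22.5% and 21.8% in the Nur77 line. Of 13 sensors, adaptors and kinases on which Trim ligases are known to act, 8 were higher and 1 lower at 5 h in the GFP line, and 6 were higher and 2 lower in the Nur77 line. Ddx58, the RIG-I sensor that Trim25 activates, went from 28.8 to 188 CPM in the GFP line and from 28.5 to 280.4 CPM in the Nur77 line. Ifih1, the MDA5 sensor on which Trim65 acts, went from 19.4 to 656 CPM and from 22.6 to 459 CPM, while Trim65 fell. Mavs, the adaptor behind both sensors, was lower at 5 h, with log2 fold changes of -0.63 and -0.80.

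Of 10 ubiquitin-conjugating enzymes and partners that supply ubiquitin to RING ligases, 8 were higher and 1 lower at 5 h in the GFP line, and 8 were higher and none lower in the Nur77 line. Among these 10, Ube2e2 had the largest log2 fold change, 1.43 in both lines, and Ube2l6, which serves the ubiquitin-like Isg15, rose by 1.02 and 1.08. Of 10 tested partners of Trim28 and its relatives in silencing, 5 were lower and 1 higher at 5 h in the GFP line, and 4 were lower and 3 higher in the Nur77 line. The heterochromatin gene Cbx5 fell by 0.73 and fell by 0.96, and the histone methyltransferase gene Setdb1 fell by 0.50 and fell by 0.35, in the direction of Trim28. Morc3 went the other way, with rises of 0.46 and 0.57, and Hdac1 and Hdac2 rose by 0.16 and 0.24 in the Nur77 line. At 0 h, 7 of these 10 were higher in the Nur77 line and none was lower, against 20.2% and 19.7% of all genes. Of 5 relatives of the family under other symbols, 3 were tested. The 5 h response differed between the lines for 1 of them, Pml, against 7.94% of all genes. Pml was lower at 5 h in the GFP line, at -0.20 on the log2 scale, and higher in the Nur77 line, at 0.49, and this difference of 0.69 had an adjusted p of 0.00026. Rnf135 was higher at 5 h in the GFP line, at 0.74, and not called in the Nur77 line, at 0.29. Mid1 was called at 5 h of LPS in neither line. The differences of Rnf135 and Mid1, -0.45 and -0.59, were not called.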

How the data were processed

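RNA-seq was measured in 24 libraries, 4 in each of 6 groups. RNA was taken on silica columns with DNase and made into libraries with a KAPA mRNA kit, per the labels' protocols. The authors deposited estimated counts per transcript, not all of them whole numbers, on mm10; the submitters' processing notes name CASAVA 1.8.2 and HISAT2 2.1.0. For the counter, the annotation version and the use of strand, nothing is stated in the labels.

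Of 42361 transcripts, 42203 were matched to symbols by the RefSeq gene table of GRCm38.p6 and 65 by GENCODE; 93 with 0.496% of the counts were not. Each gene was its transcript with the highest mean, rounded to a whole count. Genes passing edgeR's filterByExpr were fitted with TMM scaling (factors 0.896 to 1.14) and edgeR 4.0.16 robust quasi-likelihood, with 6 group means, 18 residual degrees of freedom and Benjamini-Hochberg adjustment over 12213 genes in each of 9 comparisons. CPM are scaled by TMM, and SE are those of the log2 fold change. Rounded gene counts summed to 8137306 to 29279140 per library. Counting intervals are exact at 95% and cover counting error only. The fit was also run on simulated counts in which a small share of genes was changed in Nur77 0 h. That run is no check of comparisons in which a large share of all genes was called.

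Members and lists were chosen with earlier results of these data known. All members are named; those given by library are the 6 called members with the smallest adjusted p in each comparison, with Trim21, Trim25, Trim28, Trim30a and Trim56 in all. Alternatives were DESeq2 1.42.0, other scaling, filters, transcript choice, a replicate block and leaving out each library. The library that stands apart was also left out of comparisons that do not use it.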

Additional observations from a re-analysis of the deposited data

Results flagged for a closer look

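In 228 sets of 4 libraries (38 genes in 6 groups), 12 had 1 library farther from the other 3 than Dixon's 95% critical value allows, where chance gives about 1 set in 20. The single libraries were high for Trim13 at 9.49 CPM (GFP 0 h, replicate 4), Trim29 at 0.0377 CPM (Nur77 5 h, replicate 1, with the other 3 at 0), Trim37 at 152 CPM (Nur77 0 h, replicate 1), Trim39 at 25.9 CPM (Nur77 1 h, replicate 1) and Trim44 at 186 CPM (GFP 5 h, replicate 1). Also high were Trim23 at 23.2 CPM and Trim27 at 78.7 CPM (both GFP 5 h, replicate 4), Trim27 at 91.2 CPM (Nur77 5 h, replicate 2) and Trim32 at 26.9 CPM (Nur77 0 h, replicate 3). The single libraries were low for Trim8 at 76.3 CPM and Trim65 at 1.37 CPM (both Nur77 5 h, replicate 4) and for Trim37 at 77.9 CPM (Nur77 5 h, replicate 2). None was replicate 2 of the Nur77 line at 1 h.

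The LPS response at 5 h differed between the lines by 0.40 on the log2 scale for Trim30a and by 0.28 for Trim25, by the test of the difference itself in edgeR. The call of Trim30a was kept in all 24 alternatives, and that of Trim25 was lost in 14 of 24.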

How the results depend on the processing

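No called value changed sign under the alternatives run. Of the recomputed counts, 142 stayed within 1.5 times the value given and 17 did not. The count of members whose 5 h response differed between the lines, 2, was 5 with DESeq2's Wald test, 1 with no filter on low counts, 8 with only the compared groups in the fit and 7 without Nur77 1 h replicate 2. Leaving out each library of its groups in turn gave 1 to 4. The same omissions gave 0 to 1 for the 1 h difference, 7 to 10 for LPS 1 h in the GFP line, 13 to 17 in the Nur77 line, 25 to 28 and 27 to 28 at 5 h, and 12 to 15, 12 to 14 and 11 to 13 for the lines at 0, 1 and 5 h. The cause was not tested.

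Same-numbered libraries did not deviate together: over 60 pairs the correlation ran from -0.293 to 0.170, 8 pairs were above 0.1, and 3 of 24 libraries correlated best with their own number. With the replicate number as a block, 2 members, Trim30a and Trim59 in place of Trim30a and Trim25, were called in the 5 h difference and none in the 1 h difference, and the other counts were 15, 13 and 14 for the lines, 11 and 17 at 1 h of LPS, and 27 and 28 at 5 h. Depth limits Trim29, Trim30d, Trim43c and Trim47, which had 1 to 224 counts over the 4 libraries of a group.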
